A study of Mus musculus with 4 samples.

Results

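The cytosolic chaperonin TRiC, also called CCT, was described here through the 8 mouse genes that encode its subunits: Tcp1, which encodes CCT1, and Cct2, Cct3, Cct4, Cct5, Cct6a, Cct7 and Cct8. The genes were picked by name, as the rows of the gene count table whose Ensembl identifiers map to these symbols. All 8 had a row among the 16449 rows of the table, and all 8 passed the filter on low counts. The libraries were Nanopore RNA-seq libraries from the dorsal and medial palliums, the upper wall of the embryonic forebrain, at E11.5, in the second week of gestation. There were 2 WT libraries and 2 libraries labelled Tut1 knockout (the knockout-labelled libraries), and the comparison asks which RNAs differ when Tut1, the terminal uridylyltransferase of U6 snRNA, is deleted.

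According to the study, the deletion removes a floxed exon of Tut1 by Emx1-Cre, a Cre knocked into the Emx1 locus, so that it is limited to cells of the Emx1 lineage. Red cell and microglia markers, given below, had counts in these libraries too, so that the dissected tissue also held other cells. The libraries labelled WT carry that genotype in the labels, while the study's sequencing statistics list the controls as floxed and without Cre, so that all 4 libraries would share the floxed Tut1 allele. The number of embryos per library was not given in the sources used here, and nothing states that replicates came from separate embryos. The p-values below therefore measure only the spread between these samples, which may be technical for the knockout-labelled pair. The test shares that spread across genes (37.5 prior against 2 residual degrees of freedom), so it is mostly not the spread of a single gene. The WT pair differs in sex-linked counts, given below, so its libraries came from different embryos.

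TRiC is a barrel of a pair of stacked rings, each made of 8 different but related subunits. Newly made proteins enter its cavity and fold there while the lid opens and closes with ATP binding and hydrolysis. Its best known substrates are actins and tubulins, which most cells cannot fold without it, together with several WD-repeat proteins. In the embryonic forebrain, where progenitors divide and new neurons build microtubule-rich processes, actins and tubulins are among the abundant products that depend on it. Within a ring, the neighbours CCT3, CCT6 and CCT8 are known to bind ATP weakly, while CCT2, CCT4 and CCT5 contribute strongly to the ATP cycle.

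The total count was 361003 and 392579 for WT, against 397150 and 305642 for the knockout-labelled libraries. These counts are shallow, so that the TRiC subunits other than Cct6a had 21 to 82 counts per library. The study's sequencing statistics list far more reads for each library, so the gene counts cover only a part of the reads sequenced. Of 5878 genes tested, 121 differed at an adjusted p below 0.05 in edgeR's quasi-likelihood test (2.06% of those tested), of which 82 (1.4%) were higher and 39 (0.663%) lower in the knockout-labelled libraries. The targeted gene went against the label, with Tut1 counts of 6 and 11 for WT, against 29 and 25 for the knockout-labelled libraries (log2 fold change 1.71 ± 0.40, SE, edgeR adjusted p = 0.0113). That call was lost when WT replicate 1 was left out, and likewise for each knockout-labelled library. It was also lost with DESeq2 (adjusted p = 0.44) and after thinning to the smallest library (edgeR adjusted p = 0.0509). Because only 1 exon is deleted, a count over the whole gene does not check the genotype, and every direction below follows the labels. WT replicate 1 was the only library with counts of Xist (64) and without counts of 4 Y-linked genes, which had 71 counts in WT replicate 2. All TRiC subunit genes are autosomal.

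The 8 genes lie on 8 chromosomes (GRCm38, GENCODE M21). Tcp1 is at chr17:12915701-12925067 on the plus strand, Cct2 at chr10:117051001-117063814 on the minus strand, and Cct3 at chr3:88297116-88321767 on the plus strand. Cct4 is at chr11:22990519-23003780 on the plus strand, Cct5 at chr15:31590800-31601804 on the minus strand, and Cct6a at chr5:129786998-129846371 on the plus strand. Cct7 is at chr6:85451514-85468475 on the plus strand and Cct8 at chr16:87483326-87495873 on the minus strand. No pair of them shares a locus.

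Their promoters were searched for motifs, which the choice by name did not use. RefSeq promoter windows of 300 bases, running from 250 bases before to 50 after the start (GRCm38.p6), matched 7 of the 8 genes with 9 windows. The GC box GGGCGG, the binding motif of the SP family, was searched on either strand. It was found in 8 of these 9 windows, against 35.7% of the 32851 windows of all genes. Each of the 7 genes had it in at least 1 of its windows. The CCAAT box was in 4 of the 9 windows, near its share of 37.4% over all windows, and the ETS motif CCGGAAG was in 3 of the 9, those of Cct8 and Tcp1 and 1 of Cct2 (8.86% of all windows). The TATA box TATAAA was in none (13.6% of all windows), nor were the E-box CACGTG (7.15%) and the cyclic AMP motif TGACGTCA (1.79%), and the NRF1 motif GCGCATGC was in 1 of the 9, of Cct5 (2.71%). The core of the heat shock element, to which HSF1 binds, was searched as GAANNTTC, found in 1 of the 9 windows, of Cct2 (7.86% of all windows), and as TTCNNGAA, found in 2 of the 9, of Cct5 and Cct6a (8.52%). The GC content of the windows was 47.3% to 67.7%, and the median over all windows was 52.7%. Only the lowest, a window of Cct5, lay under that median, and the others had 55.3% or more. What part GC content has in the GC box matches was not tested. These matches are letters in a window and do not show that a factor binds. The stretches below, the 120 bases before the start of Cct2 and of Cct7, are shown because they lie outside annotated exons and carry the GC box, and capitals mark matches on either strand (CCGCCC and GGGCGG for the GC box, ATTGG for the CCAAT box, CTTCCGG for the ETS motif).
Cct2 promoter, chr10:117063853-117063972, minus strand: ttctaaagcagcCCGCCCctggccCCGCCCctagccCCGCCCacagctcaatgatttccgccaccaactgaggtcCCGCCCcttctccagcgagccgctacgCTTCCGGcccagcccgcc
Cct7 promoter, chr6:85451385-85451504, plus strand, inside the span of the opposite-strand gene Pradc1: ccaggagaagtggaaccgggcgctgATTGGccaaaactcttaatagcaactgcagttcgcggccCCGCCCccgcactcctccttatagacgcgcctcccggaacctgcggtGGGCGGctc

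No TRiC subunit was detectably higher or lower in either group. None of the 8 passed the threshold over all genes, and none had an unadjusted p below 0.05, which 14.2% of all tested genes had. The fold changes ran from -0.19 for Cct3 to 0.30 for Cct4 on the log2 scale, 3 of the 8 were above 0, and their median was -0.03, against -0.01 over all 5878 tested genes. Each of the 8 intervals of 95% lay within a 2-fold change in either direction, which held for 49.5% of all tested genes. The widths differed with the counts, from a fold of 0.77 to 1.07 for Cct6a to one of 0.59 to 1.35 for Cct7, and the highest upper bound was 1.79 for Cct4. Each interval gives the fold changes compatible with the counts of its gene. It does not give the smallest change that could be detected at this depth. The 2 groups did not overlap in CPM for 3 of the 8 genes, Cct4 and Cct8 with the knockout-labelled libraries above and Cct6a with them below, against 42.9% of all tested genes. In bulk tissue, fewer cells of a type and less RNA per cell cannot be told apart.

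**Figure D1:**
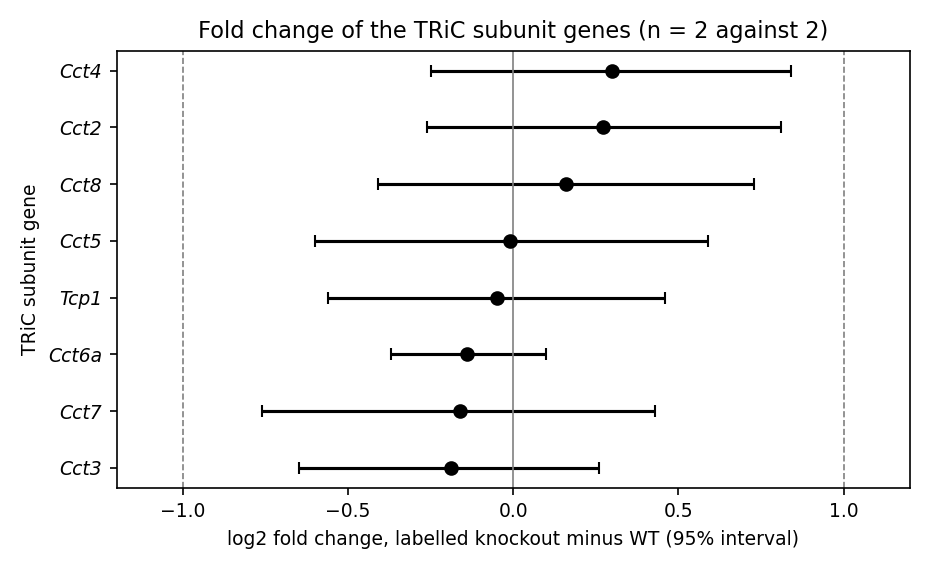
Points are the log2 fold change of each TRiC subunit gene (horizontal axis, knockout-labelled libraries minus WT, 2 against 2) with its 95% interval as a bar, and dashed lines mark a 2-fold change. All 8 intervals cross 0 and stay between the dashed lines.

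The levels below are in CPM, that is counts scaled to a common total with the TMM method over tested genes, and are followed by the log2 fold change with its SE and adjusted p from edgeR. Cct3 had 202.9 and 229.0 CPM in WT, against 170.1 and 211.9 CPM in the knockout-labelled libraries, which overlapped (-0.19 ± 0.23, adjusted p = 0.794). Cct8 had 99.96 and 92.2 CPM in WT, against 101.0 and 114.6 CPM in the knockout-labelled libraries (0.16 ± 0.28, adjusted p = 0.875). Both knockout-labelled libraries were above both WT libraries for Cct8, though the nearest pair was 99.96 and 101.0 CPM. Cct6a, the third subunit of the low-ATP side, had 1956.8 and 1916.1 CPM in WT, against 1629.0 and 1903.3 CPM in the knockout-labelled libraries (-0.14 ± 0.12, adjusted p = 0.682). Replicate 1 of the knockout-labelled libraries was the low one, and the other lay just under WT.

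Among the subunits known for strong ATP use, Cct2 had 118.1 and 111.7 CPM in WT, against 159.4 and 114.6 CPM in the knockout-labelled libraries (0.27 ± 0.27, adjusted p = 0.719). Its only high library was replicate 1 of the knockout-labelled libraries, and without it the log2 fold change was -0.0028. Cct4 had 106.0 and 97.8 CPM in WT, against 124.9 and 125.0 CPM in the knockout-labelled libraries (0.30 ± 0.27, adjusted p = 0.698), so that the groups did not overlap. Cct5 had 90.9 and 97.8 CPM in WT, against 77.1 and 114.6 CPM in the knockout-labelled libraries (-0.01 ± 0.29, adjusted p = 0.998). The knockout-labelled libraries lay on both sides of WT for Cct5, and its sign changed under 7 of the 15 alternative settings.

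The 2 remaining subunits overlapped between the groups. Tcp1, the first subunit gene to be named, had 172.7 and 131.3 CPM in WT, against 135.5 and 159.8 CPM in the knockout-labelled libraries (-0.05 ± 0.25, adjusted p = 0.963). Cct7 had 99.96 and 94.97 CPM in WT, against 98.3 and 72.9 CPM in the knockout-labelled libraries (-0.16 ± 0.29, adjusted p = 0.875). Replicate 2 of the knockout-labelled libraries, the shallowest, was the single low value of Cct7, and rested on 21 counts against 33 to 37 in the others.

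The spread between replicates was set against the error of counting alone. The WT replicates differed by less than 1 counting SE for 7 of the 8 genes, and the knockout-labelled replicates for 3 of the 8. The largest difference was 0.57 on the log2 scale, for Cct5 in the knockout-labelled libraries. One pair differed by over 2 counting SEs, Cct6a in the knockout-labelled libraries, which were 0.22 apart on the log2 scale with a counting SE of 0.08. With its high count, Cct6a had the narrowest interval of the 8, from -0.37 to 0.10 on the log2 scale.

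The subunits were not counted at equal levels, although the protein complex holds them in equal numbers. Per kilobase of the first annotated transcript, Cct6a had a mean level of 1158 CPM per kilobase over the 4 libraries, followed by Cct3 with 102.9, Tcp1 with 78.76, Cct4 with 69.42, Cct2 with 64.31, Cct5 with 51.31, Cct8 with 42.58 and Cct7 with 37.5. Cct6a was first and Cct3 second in each of the 4 libraries. Cct6a lay 11.25-fold above the next gene with no overlap, while every other neighbouring pair in the order overlapped between libraries. With the longest annotated transcript of each gene as its length, Cct6a stayed first and Cct7 last, whereas Cct2 moved from the fifth place to the second and Tcp1 from the third to the sixth. Nanopore reads can cover a whole transcript, so that a level without the division by length is also given. In plain CPM, Cct6a stood at the percentile 99.1 of all tested genes and the others between the percentiles 64.9 (Cct7) and 85.5 (Cct3).

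**Figure D2:**
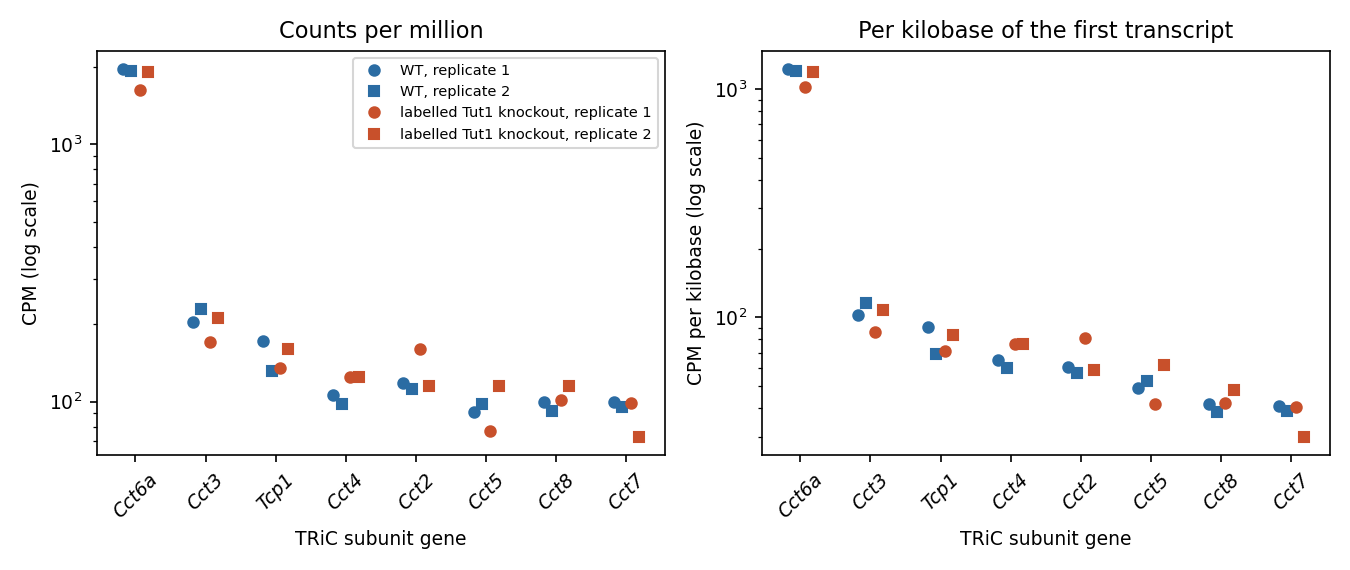
Each point is 1 library, with the TRiC subunit genes on the horizontal axis in the order of their mean level per kilobase. The vertical axes are logarithmic and give CPM on the left and CPM per kilobase of the first transcript on the right; the 4 Cct6a points lie at 1629.0 CPM or above, and all points of the other 7 genes lie at 229.0 CPM or below. The groups overlap except for Cct4, Cct6a and Cct8.

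The row of Cct6a stood apart in its annotation as well as its level. Its mean count was 623.2, against 31.25 to 68.5 for the other 7, and 54 rows of the table reached it or more. It made up 646 of 940 TRiC counts in WT replicate 1 (68.7%, exact 95% binomial interval 65.7% to 71.7%) and 686 of 992 in WT replicate 2 (69.2%, 66.2% to 72.0%). In the knockout-labelled libraries it made up 613 of 939 (65.3%, 62.1% to 68.3%) and 548 of 811 (67.6%, 64.2% to 70.8%). These intervals cover counting error only, and they overlap between the groups.

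GENCODE M21 types Cct6a as a processed transcript, a class without an open reading frame, and gives 7 transcripts of which 0 are protein coding, whereas RefSeq types the gene as protein coding. The 215 rows of that GENCODE type had a median mean count of 2.25, and Cct6a was the only one of them at its level or above. The first transcript of Cct6a holds an intron of 50165 bases, while the largest intron in the first transcript of the other 7 genes was between 1413 and 6987 bases. Psph, the phosphoserine phosphatase gene that shares exonic bases with Cct6a on the opposite strand, had only 3, 1, 1 and 2 counts. The paralogue Cct6b, known from testis and 74.3% identical over the aligned transcript, had 2, 1, 0 and 1 counts. Transcripts similar to the subunits also include 14 pseudogenes of 7 members, found by blastn with at least 150 identical bases, and none of them has a row analysed here. How reads that match several genes were assigned was not given in the sources used here, and what part the pseudogenes have in the level of any subunit was not tested.

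Other subunits share bases with genes on the opposite strand, and the counting is not stated to use strand. Tcp1 shares 571 exonic bases with Acat3, which has no row analysed here, and 141 with Mrpl18 (46, 29, 35 and 39 counts), a mitochondrial ribosomal protein gene. Cct7 shares 214 with Pradc1 (18, 29, 19 and 13 counts). Cct8 shares 192 with Usp16 (26, 34, 38 and 41 counts), a histone deubiquitinase gene. Which member of a pair was given the reads within the shared bases is not known here.

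The summed level of the 8 subunits was 2847 and 2771 CPM in WT, against 2495 and 2817 CPM in the knockout-labelled libraries. The means were 2809 ± 54.1 CPM in WT and 2656 ± 227 CPM in the knockout-labelled libraries (SD, n = 2), and the groups overlapped. Without Cct6a the sums were 890.5 and 854.7 CPM in WT, against 866.3 and 913.5 CPM in the knockout-labelled libraries, again overlapping. Neither sum was tested, since the members of a sum are not replicates.

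Among the substrates, 1 tubulin passed the threshold. Of the 16 listed tubulins, all had a row and 8 were tested, of which 1 was higher (1.4% over all tested genes) and 0 were lower (0.663%), and the median log2 fold change was 0.30. The called gene was Tuba1a, an alpha-tubulin of growing neurons, with 542.2 and 603.3 CPM in WT, against 882.3 and 896.1 CPM in the knockout-labelled libraries (log2 fold change 0.63 ± 0.15, edgeR adjusted p = 0.0117). Both knockout-labelled libraries were well above both WT libraries. Leaving out any 1 of the 4 libraries ended the call of Tuba1a, with a log2 fold change of 0.55 to 0.7. The call was also lost with DESeq2 (adjusted p = 0.183) and after thinning to the smallest library (edgeR adjusted p = 0.0741). Reads of Tuba1a may be split with the overlapping readthrough row Gm49450 (80, 94, 132 and 111 counts) and with the near-identical alpha-tubulins Tuba1b and Tuba1c, whose log2 fold changes were -0.49 (adjusted p = 0.332) and -0.06 (adjusted p = 0.978), neither past the threshold. Tubb5, the broadly used beta-tubulin, had 920.8 and 782.1 CPM in WT, against 839.8 and 760.6 CPM in the knockout-labelled libraries (-0.09 ± 0.15), and Tubb2b had a log2 fold change of 0.39 ± 0.22, neither past the threshold.

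Of 6 listed actins, 4 had a row and 3 were tested, and 0 passed the threshold in either direction. Actb, the cytoplasmic beta-actin, had 757.3 and 826.8 CPM in WT, against 1055.0 and 934.3 CPM in the knockout-labelled libraries (0.33 ± 0.14, adjusted p = 0.247). Actg1, the cytoplasmic gamma-actin, had 593.7 and 664.8 CPM in WT, against 794.6 and 826.6 CPM in the knockout-labelled libraries (0.36 ± 0.15, adjusted p = 0.232). Neither overlapped between groups, as for 42.9% of all tested genes. Acta2, the smooth muscle actin, had 15.1 and 120.1 CPM in WT, against 114.3 and 52.1 CPM in the knockout-labelled libraries, a wide spread within each group (0.31 ± 0.42, adjusted p = 0.826). Of the 8 WD-repeat clients, 6 were tested and 0 passed in either direction, with a median of 0.02. They include Fzr1, an activator of the anaphase-promoting complex, with 442.2 and 421.8 CPM in WT, against 364.1 and 236.2 CPM in the knockout-labelled libraries (-0.50 ± 0.19, adjusted p = 0.179). The G-protein beta subunits Gnb2 (0.16 ± 0.25) and Gnb1 (-0.09 ± 0.27) had smaller values.

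Set side by side, actins and tubulins summed to 3577 and 3628 CPM in WT, against to 4478 and 4157 CPM in the knockout-labelled libraries, while the 7 subunits without Cct6a kept overlapping sums. The ratio of the 2 sums was 4.02 and 4.25 in WT, against 5.17 and 4.55 in the knockout-labelled libraries. With Cct6a included it was 1.26 and 1.31 in WT, against 1.79 and 1.48 in the knockout-labelled libraries. The groups did not overlap in either form of the ratio, which was not tested, and 2 samples against 2 leave its error poorly known.

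**Figure D3:**
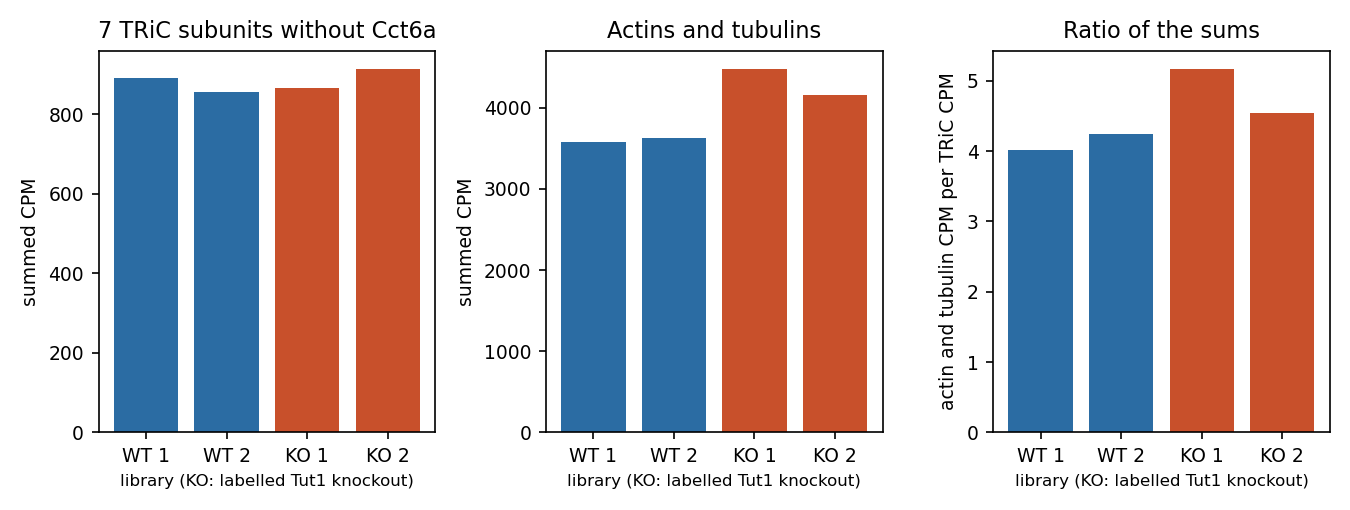
Bars, which start at 0, give for each of the 4 libraries the summed CPM of the 7 TRiC subunits without Cct6a (left), the summed CPM of actins and tubulins (middle) and their ratio (right). The left bars lie between 854.7 and 913.5 CPM in both groups, and the middle bars of the knockout-labelled libraries (4478 and 4157 CPM) lie above those of WT.

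The cofactors of the folding pathway were read against the 2.06% of all tested genes that were called, a share at which lists this short need hold none. Prefoldin, a jellyfish-shaped complex that passes nascent actin and tubulin to TRiC, had 5 of 6 genes tested, 0 past the threshold in either direction and a median log2 fold change of 0.40. Pfdn1 had 7 and 14 counts in WT, against 23 and 20 in the knockout-labelled libraries (1.08 ± 0.40, adjusted p = 0.17), and Pfdn5 had 29, 34, 38 and 38 counts (0.33 ± 0.28, adjusted p = 0.674). Pfdn4 had 21, 19, 16 and 16 counts (-0.27 ± 0.37, adjusted p = 0.836), the only tested prefoldin gene with a value below 0. The phosducin-like cofactors, which bind TRiC and modulate folding, had 3 of 4 tested, 0 past the threshold in either direction and a median of 0.23. Pdcl3 was the most counted of these, with 708.8 and 751.3 CPM in WT, against 916.8 and 795.4 CPM in the knockout-labelled libraries (0.23 ± 0.15, adjusted p = 0.517). Txndc9 had a log2 fold change of -0.06 ± 0.22 and Pdcl, with 3, 8, 11 and 9 counts, one of 0.90 ± 0.58. The tubulin cofactors, which join the alpha and beta chains after TRiC has folded them, had 3 of 7 tested, 0 past the threshold in either direction and a median of 0.46. They were Tbce (0.46 ± 0.37), Tbcb (0.51 ± 0.41) and Tbca (0.31 ± 0.48).

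Among other chaperones, the mitochondrial chaperonin had 2 of 2 genes tested and 0 called in either direction. Hspd1, its ring subunit, had 281.7 and 240.2 CPM in WT, against 212.6 and 208.4 CPM in the knockout-labelled libraries (-0.31 ± 0.21, adjusted p = 0.57), and Hspe1, its lid subunit, had a log2 fold change of -0.09 ± 0.33. The cytosolic Hsp70 and Hsp90 system had 17 of 23 genes tested, with 1 higher (1.4% over all tested genes), 0 lower (0.663%) and a median of -0.05. The called gene was Hspa14, an Hsp70-family protein that works at the ribosome, with 19 and 25 counts in WT, against 51 and 45 in the knockout-labelled libraries (1.18 ± 0.29, edgeR adjusted p = 0.0175). Leaving out WT replicate 1 ended that call, as did leaving out each knockout-labelled library. The call was also lost with DESeq2 (adjusted p = 0.477) and after thinning to the smallest library (edgeR adjusted p = 0.0876). The row of Hspa14 shares its strand and span with Gm45902 (10, 4, 8 and 3 counts). Hsp90ab1 (0.11 ± 0.14) and Cdc37 (0.06 ± 0.13) had more counts and did not pass.

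**Figure D4:**
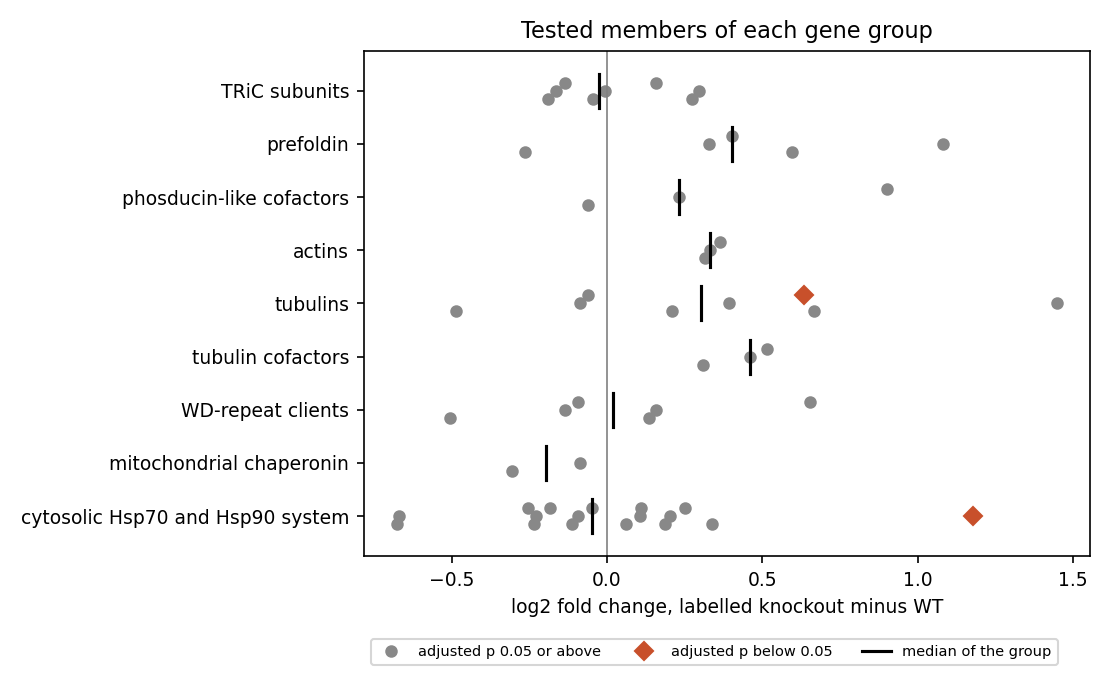
Each point is 1 tested gene, placed by its log2 fold change (horizontal axis, knockout-labelled libraries minus WT) in the row of its gene group, with diamonds for genes past the threshold and a black line at the median of the group. The 8 TRiC points lie between -0.19 and 0.30, and the diamonds are Tuba1a (0.63) and Hspa14 (1.18).

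Markers of cell types were counted in the same libraries, and the shares over all tested genes beside these counts are 1.4% higher and 0.663% lower. Of 10 tested markers of new neurons, 2 were higher and 0 lower, and their summed level was 1377 to 1421 CPM in WT, against 2046 to 2259 CPM in the knockout-labelled libraries. Of 12 tested proliferation markers, 0 were higher and 2 lower (Mki67 and Cenpf), with sums of 3854 to 4425 CPM in WT, against 2828 to 3109 CPM in the knockout-labelled libraries. Of 9 tested markers of radial glia and progenitors, 0 were higher and 1, Lhx2, was lower (2234 to 2423 CPM and 1507 to 1653 CPM). The 9 microglia markers summed to 106.1 to 109.0 CPM in WT, and to 347.3 to 411.9 CPM in the knockout-labelled libraries. The 4 that were tested were higher, among them Cx3cr1 (6, 6, 32 and 27 counts) and Aif1 (9, 6, 39 and 21 counts), but with so few WT counts such genes pass the filter mainly through the group where they are high. The 5 untested ones were near 0 and followed no single direction, with 0, 0, 3 and 0 counts of Fcer1g, 0, 0, 1 and 2 of C1qa, 0, 1, 0 and 0 of C1qb, 0, 1, 5 and 0 of C1qc and 4, 0, 1 and 3 of P2ry12. Of 4 tested markers of meningeal mesenchyme, 1 was higher and 0 lower (106.0 to 273.7 CPM and 326.5 to 481.0 CPM). The higher gene was Col1a2 (3, 7, 27 and 16 counts), which likewise passes the filter mainly through the group where it is high. Of 6 tested red cell markers 0 were higher and 1 lower, with sums that overlapped (1378 to 1852 CPM and 1521 to 2296 CPM). The part of cell makeup in the levels of TRiC, Tuba1a or any other gene above was not tested.

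The pattern of TRiC over the 4 libraries was compared with that of other genes. The mean pattern of the 8 subunits, each centred on its own mean, was 0.02 and -0.04 in WT and -0.03 and 0.05 in the knockout-labelled libraries, in log2 CPM, and averaging over 8 genes flattens it, so that flat genes come out nearest. The nearest of 2127 other genes with a mean count of at least 30 were Rpl23a (root mean square distance 0.005), Psmb6 (0.008), Nipbl (0.023), Ttc3 (0.027) and Oscp1 (0.028). The median distance was 0.196, and 275 genes lay within 0.1. The subunits themselves were 0.08 (Cct8) to 0.216 (Cct2) from their own mean, with 6 of the 8 beyond 0.1, and over 4 libraries this likeness is a description only.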

How the data were processed

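Nanopore RNA-seq of 4 libraries was analysed, 2 WT and 2 labelled Tut1 knockout, grouped by their labels. The authors deposited raw counts per gene, from poly(A)-enriched RNA. Per the study's methods, reads were aligned with minimap2 to an Ensembl mouse transcriptome and splicing events were found with FLAIR; the submitters' processing notes name GRCm38. How the gene counts were made, how reads matching several genes were assigned and whether strand was used are not given in the sources used here. Of the 16449 rows, 16436 identifiers (99.92%) matched GENCODE M21, an earlier annotation release on that build. Genes were kept by edgeR's filterByExpr (minimum count 10, minimum total 15), which left 5878 and at least 92.1% of each library's counts.

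Counts were tested with edgeR 4.0.16 (R 4.3.3), TMM scaling and the quasi-likelihood F-test across all tested genes, without a replicate block, with Benjamini-Hochberg adjustment and a threshold of 0.05. The biological coefficient of variation was 10.5%. CPM used TMM-scaled totals of tested genes. Alternatives were DESeq2 1.42.0, limma-voom (limma 3.58.1), other scalings and filters, thinning, removal of a transcript length trend, a replicate block and leaving out each library. Scripts were tested on simulated data. Depth ranged from 305642 to 397150 counts.

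Similar transcripts were found with blastn (BLAST 2.17.0). RefSeq gave promoters, and protein sequences were not used here. The 8 members are always named. From other lists at most 5 called genes are named, filled up to 3 with the most counted, and at most 2 markers per cell type. Genes sharing sequence or position with a named gene, Xist and untested genes were chosen after their values were seen. The members and lists were chosen with earlier results of these data known. Motifs were searched on both strands.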

Additional observations from a re-analysis of the deposited data

How the results depend on the processing

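None of the 8 TRiC subunits passed the threshold under any of the 15 alternative settings, with a smallest adjusted p of 0.488 (Cct6a without Tut1_KO replicate 2). Genes past the threshold over the whole table numbered 121, but 8 with DESeq2, 9 with DESeq2 without its independent filter, 76 with the replicate block, 47 after thinning to the smallest library, and 3 (without Tut1_KO replicate 1) to 108 (without WT replicate 2) when 1 library was left out, with 75 without WT replicate 1 and 35 without Tut1_KO replicate 2. In these fits a group of 1 library is assumed to vary like the other group. The cause was not tested. The median log2 fold change of the subunits (-0.026) was 0.036 with total counts only and -0.073 to 0.043 with 1 library left out, and the summed level in WT (2809 CPM) was 2565 CPM with total counts only, a setting that both takes all counts as the denominator and drops the TMM factors.

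Signs near 0 turned. Tcp1 (-0.05) was 0.02 with total counts only, -0.25 to 0.15 with 1 library left out (0.15 without WT replicate 1, 0.08 without Tut1_KO replicate 1). Cct5 (-0.01) was 0.06 with total counts only, 0.01 with both forms of DESeq2 and with the replicate block, 0.03 after thinning and -0.29 to 0.28 with 1 library left out (0.04 without WT replicate 2, 0.28 without Tut1_KO replicate 1). With 1 library left out Cct2 (0.27) ran from -0.0028 (without Tut1_KO replicate 1) to 0.47, and Cct7 (-0.16) from -0.42 to 0.01 (without Tut1_KO replicate 2). Tuba1a kept its call under 8 of 15 settings (adjusted p 0.0056 to 0.281), Hspa14 under 9 (0.0125 to 0.654) and Tut1 under 9 (0.00747 to 0.606), with no call by DESeq2 or after thinning.

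Replicates that share a number did not deviate together. Over the tested genes, the deviations of replicate 1 from its group mean had a correlation of -0.061 between the groups. With 2 libraries per group, replicate 2 mirrors replicate 1, so the second pair adds nothing. The numbers were not taken as pairs, and the replicate block changed no call of a subunit. The summed level with pseudogene rows added was not run, because no such row is analysed here; Cct6b was added instead, chosen after seeing the data, and gave 2813 CPM for WT and 2658 CPM for the other group.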

Other observations

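A retrogene relative of a TRiC subunit and the chaperonin-like BBS genes had few counts and were not tested. Cct8l1, the relative of Cct8, had 0, 0, 1 and 0 counts in WT replicates 1 and 2 and knockout-labelled replicates 1 and 2, the order used throughout. The chaperonin-like BBS genes, which help assemble the ciliary BBSome together with TRiC, had 4, 6, 5 and 2 counts for Mkks, 0, 0, 1 and 0 for Bbs10 and 0, 0, 0 and 1 for Bbs12. Among tubulins, Tubg1, the gamma-tubulin of centrosomes, had 8, 9, 7 and 15 counts and Tube1 had 19, 9, 8 and 4, both under the filter, while Tubg2 had 0 in all 4 libraries.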
